A study of Arabidopsis thaliana with 12 samples.

Results

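The genes described here are 4 nuclear genes of photosystem II and its surroundings: LHB1B2 (AT2G34420, also LHCB1.5), PSBW (AT2G30570), PSBY (AT1G67740) and AT1G76450, which encodes a PsbP-domain protein. Each is the only gene listed for 1 probe of the array, so 4 probes of 3439 were chosen, out of 692 probes that list exactly 1 gene. Total RNA of Arabidopsis thaliana was hybridised from 6 wild-type samples (WT) and from 6 samples of the psak mutant, all of the ecotype Columbia 0. The psak plants make no PSI-K, a small membrane protein of photosystem I. Neither the mutant allele nor the tissue, the age and growth of the plants, or the number of independent mutant lines is given in the sources used here. The comparison asks how transcript levels differ between plants with and without PSI-K, here for the photosystem that works upstream of photosystem I.

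Photosystem II sits in the stacked thylakoid membrane, splits water and passes the electrons through plastoquinone and cytochrome b6f to photosystem I. Light is collected for it by trimers of the LHCB proteins, and a phosphorylated part of these trimers can move to photosystem I when the light balance between the photosystems changes. PSI-K lies at the edge of photosystem I where antenna proteins bind. LHB1B2 encodes an LHCB1 protein, the most abundant component of the antenna trimers. PSBW encodes a small subunit with a single membrane helix that stabilises the supercomplex of photosystem II with its antenna. PSBY encodes a precursor that is cut into small single-helix proteins, which bind next to cytochrome b559. AT1G76450 belongs to the family of PsbP, an extrinsic protein of the water-splitting site, and its own product is also known as PPD3.

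The values are intensities on the linear scale deposited by the authors, from 0 to 100. Summed over the array, a sample had 2967 to 3460 units of intensity. Samples 5 and 6 of psak stood apart: 18.1% and 19.4% of their probes were at exactly 0, against 13.0% to 13.6% in psak samples 1 to 4 and 13.8% to 16.5% in WT. They also had the lowest medians of log2 intensity, -1.85 and -1.88 over the probes above 0 in all samples, where the other samples had -1.35 to -0.96. Samples 1 and 2, 3 and 4, and 5 and 6 of a genotype were much alike, and each such set of 2 is called a number pair below. The labels do not say whether its samples came from separate plants. The p-values therefore set a difference only against the spread of these samples, which may be technical in part. The PSAK gene itself was not analysed here, and the labels of the genotypes were therefore not checked against it. None of the 4 probes was at 0 in any sample.

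LHB1B2, the antenna gene, rose in psak, and every psak sample lay above every WT sample. Its WT intensities ran from 8.13 to 16.8 with a median of 11.7, and its psak intensities from 22.5 to 44.4 with a median of 30.0. The genotypes were separated in this way, with psak higher, for 3.82% of the 2358 probes above 0 in all samples, and in either direction for 13.1%. In WT the mean was 12.1 ± 3.52 (SD, n = 6), and the psak mean of 31.1 ± 8.08 was 2.58 times as high. On the quantile-normalized log2 scale the fold change was 0.997 ± 0.188 (SE; limma adjusted p = 0.00497). Of all 2993 tested probes, 14.8% passed an adjusted p of 0.05, and 8.12% of the 2993 did so upward. The size depended on the scaling, with a log2 fold change of 1.38 as deposited and 1.51 with samples centred on their medians. LHB1B2 passed with both (limma adjusted p = 0.00300 and 0.0130), where 146 and 164 of 2993 probes passed upward. With number pairs as a random block LHB1B2 still passed (limma adjusted p = 0.0238), as did 5.15% of all probes, 3.31% upward. That block allows for noise shared within a pair by 1 correlation for all probes, 0.590. The LHB1B2 pair means differed up to 1.93-fold in WT and 1.73-fold in psak. Samples of a pair differed at most 1.08-fold and 1.24-fold. Whether 1 array-wide correlation allows for enough shared noise in this gene was not tested. With the mean of each number pair as 1 replicate LHB1B2 did not pass (limma adjusted p = 0.209), and no probe of the array did, with 465 of 2965 at an unadjusted p under 0.05.

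PSBW gave lower mean intensities in psak, but its samples overlapped. In WT it ran from 49.2 to 87.7 with a median of 68.0, and in psak from 37.7 to 65.6 with a median of 40.7. The high end of the psak range came from samples 5 and 6, at 65.1 and 65.6, while psak samples 1 to 4 lay between 37.7 and 40.9, below all WT samples. In WT the mean was 67.9 ± 15.8 (SD, n = 6), against 48.3 ± 13.2 in psak. The log2 fold change was -0.51 ± 0.20 (SE), with a 95% confidence interval from -0.94 to -0.08, and did not pass over all probes (limma adjusted p = 0.107). Without psak samples 5 and 6 it was -0.69 ± 0.19 and passed (limma adjusted p = 0.0227), where 32.0% of all probes passed. It also passed without these samples when number pairs were a random block (limma adjusted p = 0.0490), as did 533 of 2966 probes. That fit was chosen after seeing the data. Both fits leave out the psak samples in which PSBW was highest. The intensities of this probe come near the top of the scale, and whether its ceiling compresses them was not tested.

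PSBY had nearly the same mean deposited intensity in the genotypes, 2.48 ± 0.603 (SD, n = 6) in WT and 2.47 ± 0.315 in psak. WT ran from 1.73 to 3.16 with a median of 2.60, and psak from 2.01 to 2.75 with a median of 2.62. All 6 psak samples lay inside the WT range. Quantile normalization moved the difference to a log2 fold change of 0.38 ± 0.19 (SE), with a 95% confidence interval from -0.04 to 0.81 (limma adjusted p = 0.209). Without this step it was 0.02, and with samples centred on their medians 0.16. PSBY therefore did not pass under any of these 3 scalings. The 95% confidence interval of the deposited values ran from -0.40 to 0.45 on the log2 scale, with the 12 samples taken as independent. With pair means of the normalized values the interval was wider, from -0.35 to 1.11. PSBY passed without psak samples 5 and 6, at 0.56 ± 0.19 (limma adjusted p = 0.0450), where 32.0% of all probes passed. It did not when number pairs were also a random block (limma adjusted p = 0.0820). Both fits leave out the psak samples in which PSBY was lowest and keep WT samples 5 and 6, the lowest of WT. Without samples 5 and 6 of both genotypes PSBY did not pass, at 0.34 ± 0.12 (limma adjusted p = 0.0695). With the number pair as a fixed term shared by the genotypes it passed as well (limma adjusted p = 0.0204), as did 22.0% of all probes.

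AT1G76450 fell in psak in the test of 12 samples. Its WT intensities ran from 12.5 to 16.7 with a median of 14.4, and its psak intensities from 7.68 to 13.6 with a median of 8.07. The psak samples 1 to 4 were at 7.68 to 8.09, below every WT sample, and only samples 5 and 6, at 13.6 and 12.8, reached into the WT range. In WT the mean was 14.5 ± 1.86 (SD, n = 6), and the psak mean of 9.65 ± 2.76 stood at 0.663 of it. The log2 fold change was -0.82 ± 0.25 (SE; limma adjusted p = 0.0455), in a direction in which 6.72% of all probes passed. The call was lost when number pairs were a random block (limma adjusted p = 0.107; 1.84% of all probes passed downward), with the values as deposited (-0.63, adjusted p = 0.0536 with limma) and with median centring (-0.49, adjusted p = 0.349 with limma). It was also lost when any 1 of WT samples 3, 4, 5 or 6 was left out (limma adjusted p = 0.0741, 0.0695, 0.0885 and 0.0961). Leaving out psak sample 1, 2, 3 or 4 ended it likewise (limma adjusted p = 0.0916, 0.0889, 0.0810 and 0.0824). With the number pair as a fixed term shared by the genotypes AT1G76450 passed (limma adjusted p = 0.00376), as did 22.0% of all probes. The direction stayed downward in all of these fits.

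**Figure D1:**
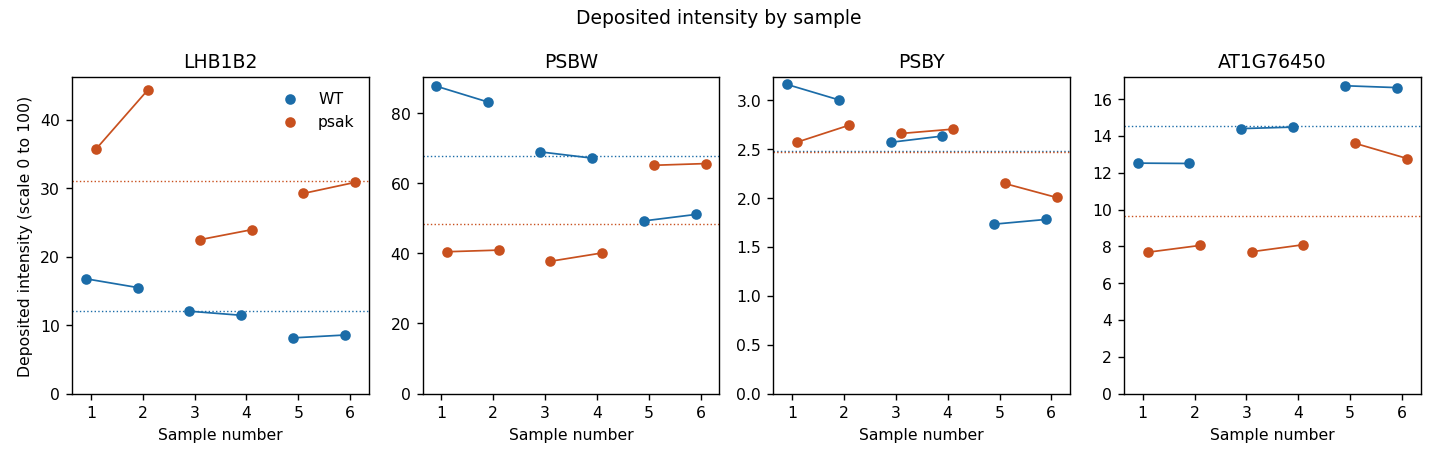
Deposited intensity (linear scale from 0 to 100, each panel with its own axis from 0) against sample number for the 4 genes. Points are single samples of WT (blue) and psak (orange), solid lines join the 2 samples of a number pair, and dotted lines are the means of 6. LHB1B2 is separated in every sample, PSBW changes order in samples 5 and 6, PSBY overlaps in its whole ranges but not within a number pair, and AT1G76450 is lowest in psak 1 to 4.

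**Figure D2:**
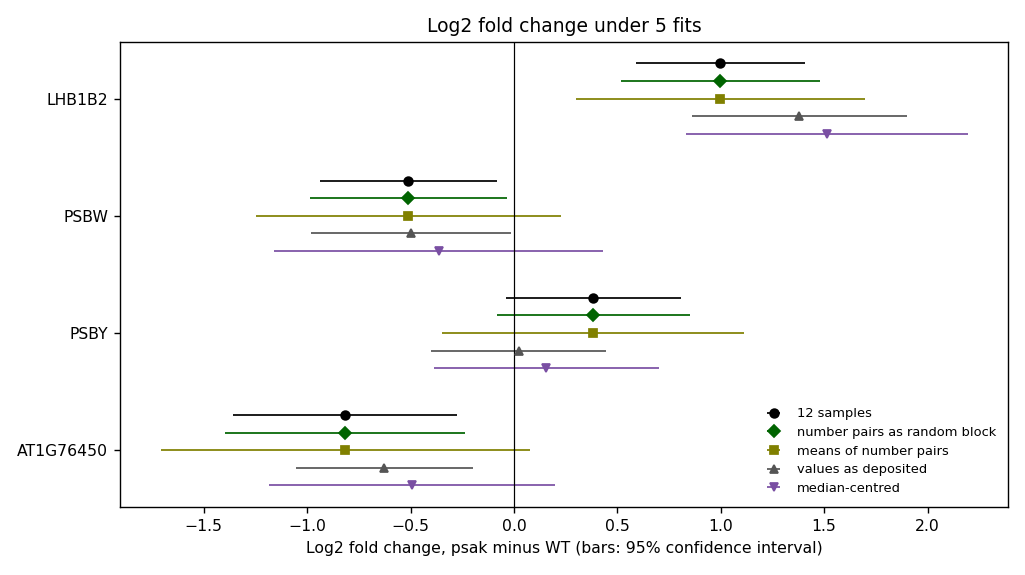
Log2 fold change, psak minus WT, of the 4 genes under 5 limma fits, with bars for the 95% confidence interval. The first 3 fits use quantile-normalized values and differ in how number pairs are treated, and the last 2 change the scaling of the samples. The LHB1B2 interval lies above 0 in all 5, whereas the PSBY interval includes 0 in all 5.

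Samples of a number pair gave close readings for all 4 genes, and number pairs of a genotype differed much more. The higher of the 2 intensities in a pair was at most 1.24 times the lower one, over the 4 genes and both genotypes. The highest pair mean was 1.29 to 1.93 times the lowest pair mean of the same gene and genotype. In each of these 8 combinations of gene and genotype the number pairs were farther apart than the samples within any pair. In WT, samples 5 and 6 were lowest for LHB1B2, PSBW and PSBY and highest for AT1G76450. In psak, samples 5 and 6 were highest for PSBW and AT1G76450 and lowest for PSBY.

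The labels do not say whether a number stands for the same thing in WT and psak, so the comparisons by number pair are descriptions by label. Taken pair by pair, the deposited LHB1B2 intensity went from a WT mean of 16.1 to 40.0 in psak for samples 1-2, from 11.7 to 23.2 for samples 3-4 and from 8.34 to 30.0 for samples 5-6. The antenna gene was higher in psak by a ratio of 2.48, 1.98 and 3.60. Its normalized log2 differences were 0.89, 0.90 and 1.20. All 3 number pairs had the same sign, also with the values as deposited and with median centring.

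PSBW went from 85.4 to 40.7 for samples 1-2 and from 68.0 to 38.9 for samples 3-4, but from 50.1 to 65.3 for samples 5-6. Its ratio of psak to WT was 0.476, 0.572 and 1.30. The sign in samples 5-6 was opposite to the others under each of the 3 scalings, with log2 differences there of 0.17 normalized, 0.38 as deposited and 1.29 after median centring. A test of whether the genotype difference itself varied between number pairs passed for PSBW (limma interaction F test, adjusted p = 0.00564). Its residual comes only from the 2 samples within a pair, and 23.2% of 2751 probes passed it, so a pass says that number pairs differed by more than neighbouring samples did.

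PSBY went from 3.08 to 2.66, from 2.60 to 2.68 and from 1.76 to 2.08 in samples 1-2, 3-4 and 5-6. The direction in samples 1-2 depended on the scaling, with log2 differences of 0.20 normalized, -0.21 as deposited and -0.53 after median centring. The interaction test gave an adjusted p of 0.327 with limma for PSBY and 0.442 for LHB1B2. On unnormalized values the LHB1B2 interaction passed (limma adjusted p = 0.0183), as did that of 48.7% of all probes, and there the increase differed in size between number pairs but not in sign.

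AT1G76450 went from 12.5 to 7.86, from 14.4 to 7.90 and from 16.7 to 13.2. The ratios were 0.628, 0.547 and 0.791, with psak lower in every pair. Normalization reordered these differences: the deposited log2 difference of samples 5-6 was the smallest in size, at -0.34, while the normalized one was the largest, at -1.26, and after median centring it was 0.57, with psak higher. The interaction passed for this gene (limma adjusted p = 0.0181). On normalized values, 3 of the 4 genes had 1 direction in all 3 number pairs, PSBW being the exception, against 42.7% of the 2758 probes with a value in each pair. As deposited this held for 2 of the 4 (33.0% of probes) and after median centring for LHB1B2 alone, 1 of the 4 (33.6%). The share of probes at 0 and the low medians of psak samples 5 and 6 move with these differences, and their part in them was not tested.

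**Figure D3:**
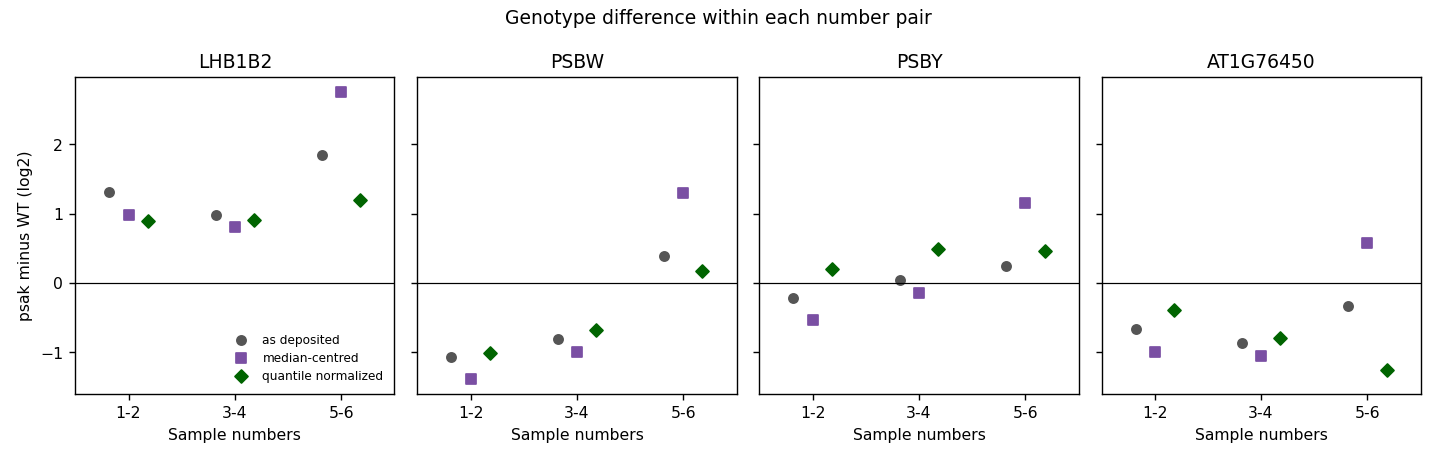
Log2 difference, psak minus WT, of the 4 genes within sample numbers 1-2, 3-4 and 5-6, from pair means of values as deposited (circles), after median centring (squares) and after quantile normalization (diamonds). LHB1B2 is above 0 in all 9 cases, PSBW turns from below to above 0 in samples 5-6, and in samples 5-6 the 3 scalings are farthest apart for each gene.

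Whether the genes changed unequally was tested on the difference of 2 probes' normalized log2 values in each sample. All 6 pairings of the 4 genes were compared with a two-sided exact permutation test of the 12 samples, whose smallest possible p is 0.00216, and p-values were adjusted over the 6. LHB1B2 rose relative to PSBW by 1.51, relative to AT1G76450 by 1.81 and relative to PSBY by 0.61 on the log2 scale (exact permutation adjusted p = 0.00433 for each). The rise of LHB1B2 relative to each of the others held in all 3 number pairs: by 1.91, 1.58 and 1.03 over PSBW, by 1.28, 1.70 and 2.46 over AT1G76450 and by 0.69, 0.42 and 0.73 over PSBY.

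On normalized values, with the 12 samples taken as independent, the small subunits also differed from each other in their change. The log2 fold change of PSBW minus that of PSBY was -0.89 (exact permutation adjusted p = 0.0156), at -1.22, -1.16 and -0.30 in the 3 number pairs. With the values as deposited this difference was -0.52 and did not pass (exact permutation adjusted p = 0.0909). PSBY against AT1G76450 gave 1.20 (exact permutation adjusted p = 0.0156), and with the values as deposited 0.65 (exact permutation adjusted p = 0.0909). PSBW and AT1G76450, the genes with lower means in psak, differed by 0.31 (exact permutation adjusted p = 0.411), and the 3 number pairs did not share a sign, at -0.63, 0.12 and 1.43. These permutations treat the samples of a number pair as independent. With pair means, 3 against 3, the smallest possible p is 0.100, so no pairing could pass.

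Other genes of the thylakoid complexes were sought with a list of 88 loci: photosystem II and its antenna, PsbP-domain and PsbQ-like proteins, assembly and repair factors of photosystem II, photosystem I with its antenna, and the carriers between the photosystems. Only 6 of the 88 had a probe that names a single gene, the 4 genes above, PSAN and PSB27, and all 6 were tested. The list held 15 genes of the photosystem II antenna, of which LHB1B2 alone had a probe that names a single gene. A further 6 probes list several genes, at least 1 of them on the list of 88, and were not read. No gene is listed for 1877 probes. The change of LHB1B2 was therefore not set beside that of its closest relatives. Over the 6 genes, 2 rose (LHB1B2 and PSAN), 1 fell (AT1G76450) and 3 did not pass, where 8.12% of all tested probes rose and 6.72% fell, with a median log2 fold change of -0.06, against -0.0026 over all tested probes. With number pairs as a random block 2 passed, LHB1B2 and PSAN, against 5.15% of all probes. Without psak samples 5 and 6 all but PSB27 passed, 5 in number, against 32.0% of all probes. Without samples 5 and 6 of both genotypes 4 passed, LHB1B2, PSAN, PSBW and AT1G76450, against 26.7%. The 4 genes and the list were chosen with earlier results of these data known, so these counts carry no test.

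PSAN, a lumenal subunit of photosystem I, resembled LHB1B2 in its separation. Its mean went from 2.97 ± 0.841 (SD, n = 6) in WT to 6.85 ± 2.07 in psak. The normalized log2 fold change was 1.43 ± 0.25 (SE, limma adjusted p = 0.00366). PSB27, a lumenal factor in the assembly and repair of photosystem II, stood at -0.53 ± 0.72 on the log2 scale (limma adjusted p = 0.655). Its WT intensities ran from 0.267 in sample 4 to 3.73 in sample 1, and in psak samples 3 and 4 were likewise lowest, at 0.323 and 0.239. The PSB27 means, 1.77 in WT and 0.944 in psak, lay closer together than the lowest and highest sample of either genotype. The LHCB1 genes are nearly identical in sequence, and whether the LHB1B2 probe also detects transcripts of its relatives was not tested.

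**Figure D4:**
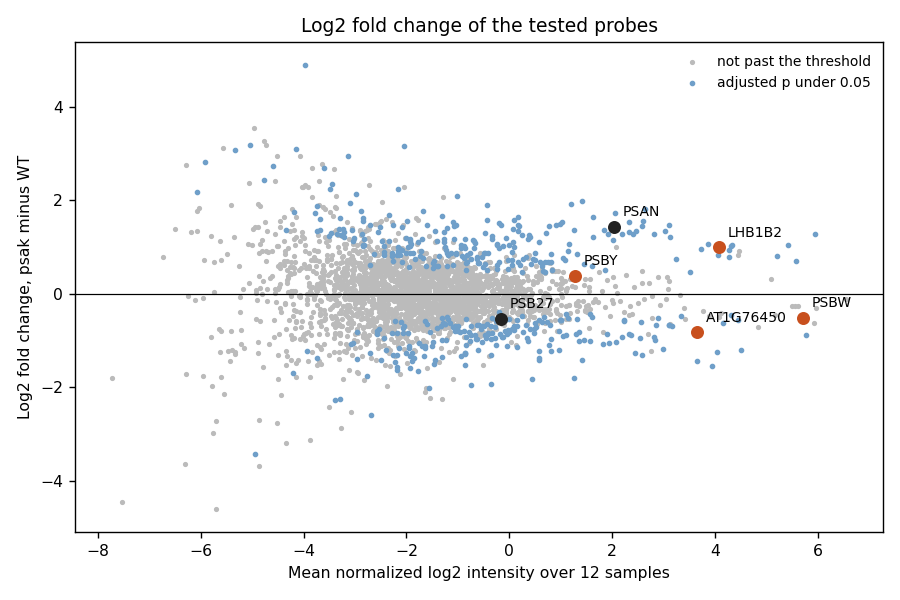
Log2 fold change, psak minus WT, against the mean normalized log2 intensity of the 2993 tested probes, with probes at an adjusted p under 0.05 in blue and the others in grey. The 4 genes are orange and the other list genes, PSAN and PSB27, black. LHB1B2 and PSAN lie among the raised probes, AT1G76450 among the lowered ones, and PSBW, PSBY and PSB27 did not pass.

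The genes whose pattern over the 12 samples was nearest to each of the 4 were found among 475 other single-gene probes above 0 in all samples. The measure was the root mean square (RMS) difference of normalized log2 values after each probe's mean was subtracted, so a small value means nearly the same course over the samples. Nearest to LHB1B2 were AT5G19210 (RMS 0.155), AT3G06570 (RMS 0.207) and AT5G53920 (RMS 0.268), against a median of 0.760 over all 475. They had log2 fold changes of 1.04, 1.28 and 0.75, close to that of LHB1B2 by the way they were chosen. Nearest to PSBW were AT2G37580 (RMS 0.159), AT4G38490 (RMS 0.212) and AT2G27290 (RMS 0.271), with a median of 0.616. They stood at -0.59, -0.59 and -0.62 in log2 fold change.

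Nearest to PSBY were AT2G38550 (RMS 0.149), AT5G05400 (RMS 0.180) and AT3G45770 (RMS 0.192), with a median of 0.591. Nearest to AT1G76450 were AT3G04650 (RMS 0.189), AT5G40030 (RMS 0.255) and AT5G38310 (RMS 0.287), with a median of 0.717. Their log2 fold changes were -0.86, -0.58 and -0.33. Genes chosen for a like course share the genotype difference by that choice, so these values carry no test. Each list mixes the genotype difference with the spread between number pairs. None of the 4 genes was among the nearest 3 of another.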

How the data were processed

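Intensities of 6 WT and 6 psak samples were used as deposited by the authors, 1 per probe and sample; their scanning, background correction and scaling are not given in the sources used here. Gene names come from the platform's probe table and the RefSeq annotation of TAIR10.1. No coordinates are given, since no build is named for the array.

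Intensities of 0 were treated as missing, the others taken to log2 and quantile normalized. Probes with at least 2 values in each genotype (2993) entered a two-sided fit of psak against WT in R 4.3.3 (limma 3.58.1: lmFit, then eBayes). P-values were adjusted by Benjamini-Hochberg over all tested probes, with a threshold of 0.05. The fit was also run on simulated data with noise drawn separately for each sample, none of it shared within a number pair. That run therefore cannot show how the fit behaves with such shared noise. The consensus correlation for the random block was 0.590, used for every probe. The number of arrays limits the precision. Alternatives were other scalings, an offset of 0.05 that keeps zeros, filters on dim probes, blocks, and samples left out. Named genes were the 4 genes, the tested list genes and the 3 nearest patterns of each. The 4 genes and the lists were chosen with earlier results of these data known. The random block without psak samples 5 and 6 was chosen after seeing the data.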

Additional observations from a re-analysis of the deposited data

Results flagged for a closer look

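The genotype difference varied between number pairs for PSBW and for AT1G76450 by more than the 2 samples within a pair did (limma interaction F test, adjusted p = 0.00564 and 0.0181). That spread within pairs may be technical only, and 23.2% of all probes passed this test. PSBW was lower in psak in samples 1-2 and 3-4 and higher in samples 5-6, with normalized log2 differences of -1.02, -0.68 and 0.17. AT1G76450 was lower in all 3, by normalized log2 differences of -0.39, -0.79 and -1.26, but in samples 5-6 it was at -0.34 as deposited and at 0.57, higher in psak, after median centring. Single outlying samples were also sought with Dixon's ratio in 12 groups of deposited intensities, but samples that stand apart as a number pair, such as psak 5 and 6 for PSBW, mask each other in this ratio, so its outcome says nothing here.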

How the results depend on the processing

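No alternative turned the sign of a log2 fold change over the 12 samples for the 4 genes, or of a difference between them. LHB1B2 passed in every fit except pair means (0.997, limma adjusted p = 0.209). AT1G76450 did not pass as deposited (-0.63), median-centred (-0.49), with the random block (-0.82), with pair means (-0.82) or with the random block without psak 5 and 6 (-0.93, limma adjusted p = 0.0553). PSBW passed without psak 5 and 6 (-0.69), likewise with the random block, and without samples 5 and 6 of both genotypes (-0.85). PSBY passed with the number pair as a fixed term (0.38, limma adjusted p = 0.0204), where 22.0% of probes passed. It also passed without psak 5 and 6 (0.56), where 32.0% of probes passed, but not without samples 5 and 6 of both genotypes (0.34, limma adjusted p = 0.0695). The cause was not tested; pair means leave fewer samples.

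The 444 calls became 283 with median centring, 154 with the random block, 0 with pair means (465 at an unadjusted p under 0.05, limma), 949 without psak 5 and 6 and 780 without samples 5 and 6 of both genotypes. They were 243 higher and 201 lower, against 146 and 275 as deposited, where the array-wide median difference was -0.11 on the log2 scale, and 99 and 55 with the random block. Of the 6 list genes 3 passed (14.8% of all probes), 2 with the random block (5.15%), 0 with pair means (no probe), 5 without psak 5 and 6 (32.0%) and 4 without samples 5 and 6 of both genotypes (26.7%). The list was chosen with earlier results of these data known, so these counts carry no test.

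With pair means, no difference between genes could pass by exact permutation test: LHB1B2 minus PSBW 1.51, minus PSBY 0.61 and minus AT1G76450 1.81, PSBW minus PSBY -0.89, PSBY minus AT1G76450 1.20. As deposited, PSBW minus PSBY (-0.52) and PSBY minus AT1G76450 (0.65) did not pass. The LHB1B2 interaction passed as deposited (limma adjusted p = 0.0183).

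With each sample left out in turn, AT1G76450 ran from -0.94 to -0.67 and lost its call in 8 of 12 cases. The other 3 genes kept their side of the threshold, LHB1B2 from 0.91 to 1.11, PSBW from -0.59 to -0.40 and PSBY from 0.30 to 0.47. Calls over the array ran from 331 to 583.

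With the sample number as a replicate block shared by WT and psak, 432 probes passed, LHB1B2 and AT1G76450 among them (limma adjusted p = 0.00840 and 0.0291). Deviations of same-numbered samples correlated at 0.08 to 0.24, not above 0.1 in every pair, so the numbers were not taken to pair the samples. Of the 12 samples 11 were most like the one of their own number in the other genotype. Each correlation counts for both of its samples, so these matches are not independent. Whether the numbers are shared by the genotypes was not tested.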
